A study of Homo sapiens with 6 samples.

Results

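The genes described here encode the receptors for estrogen (ESR1, ESR2), progesterone (PGR), glucocorticoids (NR3C1) and mineralocorticoids (NR3C2), together with 2 co-chaperones of steroid receptors, FKBP4 and FKBP5. They were chosen by name and are 7 of the 26364 genes in the count table. All 7 had enough counts to pass the filter on low values, which 15611 genes passed. The cells were Ishikawa, an estrogen-responsive line from an endometrial adenocarcinoma. The 6 poly(A)-selected RNA-seq libraries came from the parental line and from 2 clones in which ETV4, an ETS-family transcription factor, was knocked out. From every line there was 1 library after 0.1% DMSO, the vehicle, and 1 after 10 nM estradiol (E2). All 3 lines had spent 5 days in medium depleted of hormones beforehand. The labels give the treatment time as 8 h in the protocols and as 1 h in the sample characteristics. Each treatment thus had 2 knockout libraries, from different clones, and 1 parental library, so a difference between genotypes cannot be told apart from a difference between lines.

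Steroid receptors are transcription factors that are switched on by their hormone. Without hormone they are held by Hsp90 in a complex that is built with the help of Hsp70, Hsp40 and the cochaperone p23, and whose last partner is often an immunophilin such as FKBP4 (FKBP52) or FKBP5 (FKBP51). FKBP4 is known to promote hormone binding and signalling by the progesterone and glucocorticoid receptors, whereas FKBP5 lowers their affinity for hormone and is itself a well known target gene of both. In the endometrium, estrogen acting through the ESR1 protein raises the progesterone receptor, which prepares the tissue for progesterone. Mice without Fkbp4 are known to have a uterus that responds poorly to progesterone.

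The libraries held 28037392 to 36829479 counts, and scaling factors (TMM) ran from 0.899 in the parental DMSO library to 1.04 in clone 2 in DMSO. ETV4 stood at 19.7 and 28.4 CPM (counts scaled to library size) in the parental line in DMSO and E2, and at 2.42 to 3.41 CPM in the 4 clone libraries. Summed over 7 markers of endometrial epithelium, the level was 2920 to 3200 CPM in DMSO and 2300 to 2570 CPM in E2. KRT8 (589 to 754 CPM in E2, 1031 to 1127 CPM in DMSO) and KRT18 (351 to 438 and 596 to 684 CPM) carried most of that difference, at log2 changes of -0.68 and -0.67 that did not pass, and the other 5 markers lay between -0.22 and 0.40. The sums were 48.9 to 87.1 CPM for 7 stromal markers, 1.65 to 4.55 CPM for 4 endothelial markers and 0.134 to 0.548 CPM for 4 leukocyte markers, of which CD3E was at 0. COL1A1, at 44.8 to 75.2 CPM, made up most of the stromal sum, and DCN, LUM and PDGFRB were at 0 to 0.0837 CPM. The E2 change of the parental line also moved with the GC content and transcript length of genes, smoothed and added up. At the GC content and length of the 7 receptor and FKBP genes this trend was 0.11 to 0.30 on the log2 scale. It was 0.04 to 0.15 in clone 1 and -0.05 to 0.01 in clone 2, and the share of GC content alone was not separated. The part of either shift in the results was not tested beyond the corrected fits named beside them. In bulk RNA, a change in the number of cells that express a gene cannot be told apart from a change in the RNA per cell.

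Estrogen receptors bind DNA at paired half-sites, so the half-sites just before annotated starts of the genes are shown. RefSeq promoter windows (GRCh38.p14) were found for 6 of the 7 genes (not FKBP4), with 27 windows in all, and the 250 bases before each start were searched on both strands. The full estrogen response element, GGTCANNNTGACC, which holds the half-site at each end, was in 0 of the 27 windows and in 0.0399% of all 35116 windows. The half-site GGTCA or its reverse complement was in 7 of the 27, against 32.6% of all windows. Each line gives 30 bases, 5′ to 3′ on the strand of the gene, with the half-site in capitals.
PGR: aagggcaggagcTGACCagcgccgccctcc
ESR1: tcctaatttcatGGTCAtaacagcctcctg
ESR2, distal: ctcccacttagaGGTCAcgcgcggcgtcgg
ESR2, proximal: gctccctggctcGGTCAcgtgggctcaggc
NR3C2, distal: aagaagcccgccTGACCcgtgcggcgtgga
NR3C2, proximal: tatctggacatgTGACCcgcttttaaaagg
FKBP5: ctctgaactctgGGTCAgctgaggacagag
The PGR half-site begins 180 bases before an annotated start, within chr11:101129226-101129255 (minus strand), and lies inside an exon of other PGR transcripts. The ESR1 half-site begins 29 bases before a start, within chr6:151690486-151690515 (plus strand), also in annotated exon. The ESR2 pair begins 127 and 78 bases before a start, within chr14:64294481-64294510 and chr14:64294432-64294461 (minus strand). The NR3C2 pair begins 209 and 118 bases before a start, within chr4:148442606-148442635 and chr4:148442515-148442544 (minus strand). The FKBP5 half-site begins 97 bases before a start, within chr6:35728663-35728692 (minus strand), and neither it nor the ESR2 and NR3C2 half-sites lie in annotated exons. Half-sites thus stood before some starts of PGR, which rose with E2, and before genes that did not pass the test. The window of the most upstream PGR start searched held 0. Overlapping windows of PGR, and of ESR2, held the same half-sites. Whether the half-sites bear on the E2 changes was not tested. The other motifs were the GC box GGGCGG (17 of 27 windows, 42.6% of all windows), the ETS core CCGGAA (5 of 27, 14.5%), the glucocorticoid and progesterone half-site AGAACA (1 of 27, 12.4%), the AP-1 site TGANTCA (1 of 27, 6.57%) and the heat shock element GAANNTTC (0 of 27, 5.78%). A match of letters does not show binding.

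Levels of the genes were first set in order, per kilobase of the longest coding transcript, as means over the 6 libraries. FKBP4 was highest at 117 CPM per kilobase, followed by ESR1 at 31.6, FKBP5 at 9.88 and NR3C1 at 7.48 CPM per kilobase. NR3C2 stood at 2.67, PGR at 2.19 and ESR2 at 0.122 CPM per kilobase. FKBP4 and ESR1 were separated from their neighbours in this order in each library, whereas FKBP5 (7.58 to 11.1) and NR3C1 (5.85 to 9.38) overlapped. The place of PGR depended on the treatment. In DMSO PGR stood at 0.117 to 0.532 CPM per kilobase, under NR3C2 at 2.84 to 3.02, and in E2 it stood at 2.53 to 5.20, above NR3C2 at 2.20 to 2.70. With coding length alone in the denominator the mean of PGR (10.7) passed that of NR3C2 (5.33), and the other genes kept their order. In the parental DMSO library PGR, at 0.117 CPM per kilobase, was close to ESR2 at 0.105. This depended on the length used: per kilobase of coding sequence PGR stood at 0.577 and ESR2 at 0.359 CPM.

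**Figure D1:**
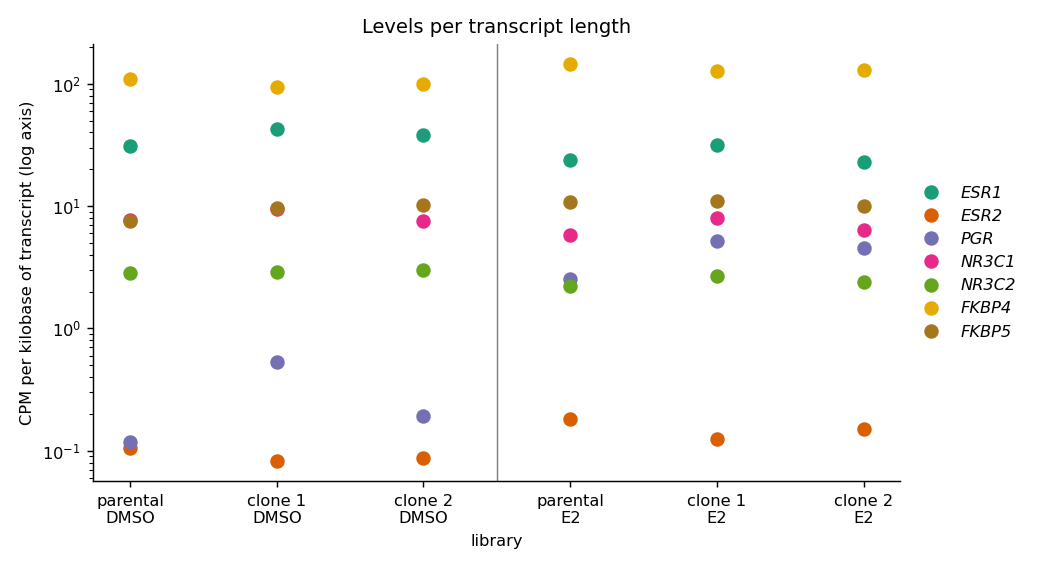
Level of each of the 7 genes in CPM per kilobase of transcript (log axis) in the 6 libraries, DMSO on the left and E2 on the right, 1 point per gene and library. PGR lies under NR3C2 in the 3 DMSO libraries and above it in the 3 E2 libraries, and FKBP4 is highest throughout.

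PGR, the progesterone receptor gene and a classical estrogen target, was the 1 gene of the 7 that passed the test for E2. The parental line had 1.61 CPM with vehicle and 34.8 CPM with E2. Clone 1 had 7.31 CPM with vehicle and 71.5 CPM with E2, and clone 2 had 2.66 and 62.7 CPM. The lowest E2 library was thus above the highest DMSO library, and both clones were above the parental line under each treatment. On the log2 scale E2 changed PGR by 4.38 in parental cells, by 3.28 in clone 1 and by 4.52 in clone 2, and PGR was the single one of the 7 genes past 2-fold in any of the 3 lines. Changes of 2-fold were found for 16.4% of all genes in parental cells, 6.04% in clone 1 and 6.51% in clone 2. Over the 3 lines the log2 change was 3.94 (SE 0.38), a 15.3-fold rise (edgeR quasi-likelihood F-test, Benjamini-Hochberg adjusted p = 0.00772). In this test 1 of the 7 genes was called, at a background of 1.13% of genes tested, and 2.46% with line as a replicate block, where PGR was again the 1 gene called.

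In the clones alone PGR rose by 3.73 (SE 0.44), a 13.3-fold difference (edgeR quasi-likelihood F-test, adjusted p = 0.0447), where 0.329% of genes were called. That call was close to the threshold. Without the DMSO library of clone 1 the change was 4.64 with an adjusted p of 0.067, and after correcting for the GC content and length of transcripts, chosen after seeing the data, it was 3.62 with an adjusted p of 0.0848 (both edgeR quasi-likelihood). The table gives 1 count per gene, so the receptor forms A and B, made from different starts of PGR, were not separated. The antisense gene that starts beside PGR, LOC101054525 (PGR-AS1 in RefSeq), had 0 to 6 counts per library, against 48 to 2085 for PGR, and the use of strand in counting is not given in the sources used here.

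**Figure D2:**
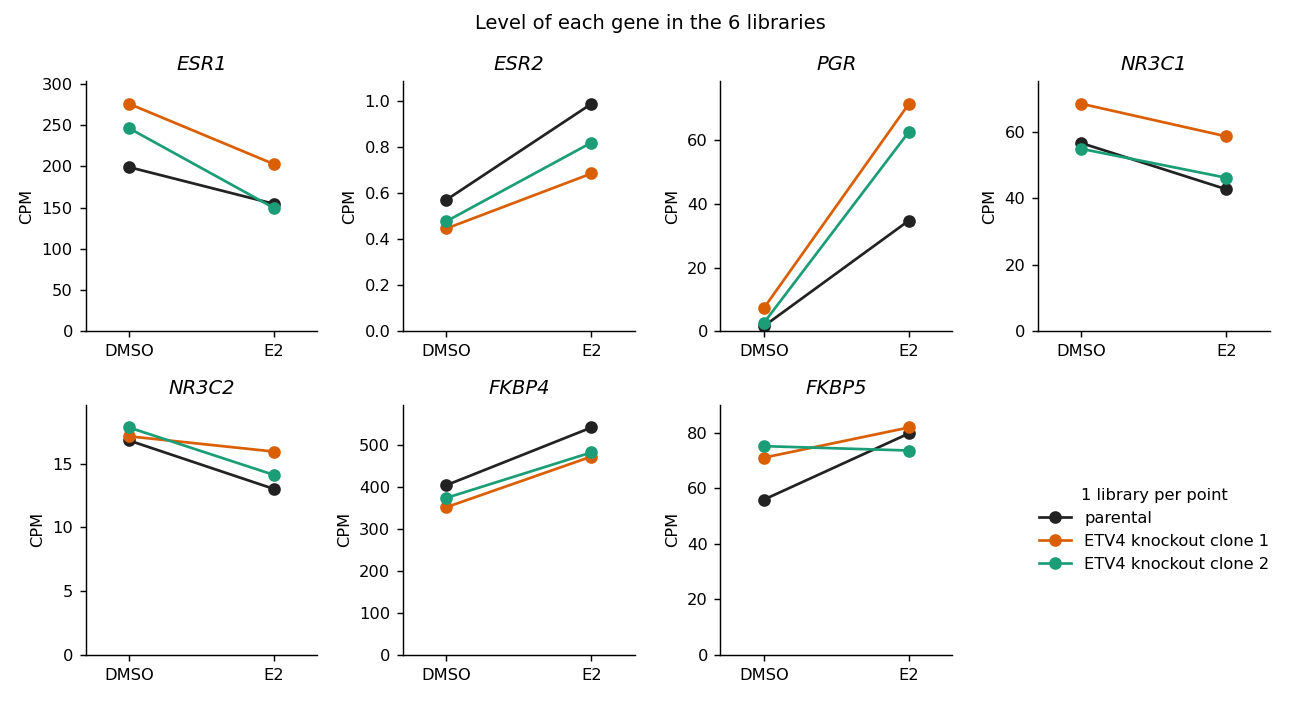
Level (CPM, linear axes from 0) of each gene after DMSO and E2, with 1 library per point and lines joining the libraries of the same cell line. PGR runs from 1.61 to 7.31 CPM in DMSO and from 34.8 to 71.5 CPM in E2, while no other gene ranges over more than 2.21-fold (ESR2).

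Before hormone, the 2 clones were far apart in PGR. In DMSO clone 1 was 2.14 above the parental line on the log2 scale (453% of its level, from 262 and 48 counts) and clone 2 was 0.70 above it (165%, from 78 counts). The 95% Poisson intervals, which cover counting error only, were 6.45 to 8.26 CPM in clone 1, 2.11 to 3.32 CPM in clone 2 and 1.19 to 2.14 CPM in the parental line. The clones therefore differed from each other in DMSO by 1.44 on the log2 scale and in E2 by 0.19, with clone 1 higher in both. In E2 they stood at 205% and 180% of the parental level. Fitted over both treatments, knockout libraries exceeded parental ones by a log2 difference of 1.22 (SE 0.39, 95% interval 0.29 to 2.15), and it did not pass the threshold (edgeR quasi-likelihood F-test, adjusted p = 0.332). That fit counted the DMSO and E2 libraries of a line as separate samples, so its interval does not measure the spread between lines.

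The knockout effect was called for 0 of the 7 genes by edgeR, at a background of 0.327% of genes, and PGR was the 1 gene of the 7 with an unadjusted p under 0.05. By limma-voom 0 were called, and by DESeq2 1, PGR, at a log2 difference of 1.24 (DESeq2 Wald test, adjusted p = 0.0274), in a fit that called 2.91% of genes. PGR also passed with clone 2 left out, at 1.47 (edgeR quasi-likelihood, adjusted p = 8.38e-11), where clone 1 alone stands for the knockout and 6.41% of genes were called. With clone 1 left out instead, so that clone 2 alone stands for the knockout, the PGR difference was 0.78 and did not pass. It was 0.94 without the parental DMSO library and 1.64 without the parental E2 library. Clone libraries lay all above or all under the parental libraries for 0 of the 7 genes, against 16.4% of all genes. For PGR the parental E2 library was above both clones in DMSO.

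ESR1, which encodes estrogen receptor α, was lower after E2 in each line. Parental cells had 199 CPM with vehicle and 154 CPM with E2, clone 1 had 276 and 203 CPM, and clone 2 had 246 and 149 CPM. The E2 library of clone 1 was just above the DMSO library of the parental line, so the treatments overlapped. By line, the log2 change was -0.37 (parental), -0.45 (clone 1) and -0.72 (clone 2). Over the 3 lines it was -0.50 (SE 0.16, 95% interval -0.88 to -0.13) and did not pass after adjustment (edgeR quasi-likelihood F-test, adjusted p = 0.177). With line as a replicate block the 3-line change was -0.51 and did not pass either (same test, adjusted p = 0.0966). In the clones alone it was -0.58 without pairing (adjusted p = 0.48), while with line as a replicate block it was -0.59 and passed (adjusted p = 0.00135, both edgeR quasi-likelihood). That paired fit called 15.0% of all genes and left 1 residual degree of freedom, so its p-values use 1 spread estimated over the whole table. Between genotypes ESR1 differed by 0.29 (SE 0.17, 95% interval -0.11 to 0.69). Clone 1 was above the parental line under both treatments, and clone 2 was above it in DMSO and just under it in E2.

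ESR2, which encodes estrogen receptor β, was near the limit of these libraries. Parental cells gave 17 counts with vehicle and 37 with E2, clone 1 gave 16 and 20, and clone 2 gave 14 and 24, or 0.447 to 0.989 CPM. Each E2 library was above each DMSO library. The Poisson intervals of DMSO and E2 overlapped within each line, for example 0.333 to 0.914 and 0.697 to 1.36 CPM in the parental line. The log2 change over the 3 lines was 0.73 (SE 0.31, 95% interval -0.01 to 1.47; edgeR quasi-likelihood F-test, adjusted p = 0.25). Per kilobase, ESR1 was 294 to 521 times ESR2 in DMSO and 132 to 249 times ESR2 in E2. In the measured values ESR1 was lower and ESR2 higher after E2 in each line, but neither change passed in the main test over the 3 lines.

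The corticosteroid receptors varied by 1.60-fold (NR3C1) and 1.37-fold (NR3C2) over the 6 libraries. NR3C1, the glucocorticoid receptor, had 56.5 CPM with vehicle and 42.7 CPM with E2 in parental cells. Clone 1 had 68.4 and 58.5 CPM and clone 2 had 54.8 and 46.1 CPM. The E2 library was the lower in each line, and clone 1 in E2 lay above the DMSO libraries of the other lines. The log2 change was -0.29 (SE 0.15, 95% interval -0.64 to 0.06; edgeR quasi-likelihood F-test, adjusted p = 0.308).

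NR3C2, the mineralocorticoid receptor, had 16.8 CPM with vehicle and 13.0 CPM with E2 in parental cells, 17.1 and 15.9 CPM in clone 1, and 17.8 and 14.1 CPM in clone 2. The 3 E2 libraries were all under the 3 DMSO libraries. The log2 change was -0.27 (SE 0.13, 95% interval -0.59 to 0.05; edgeR quasi-likelihood F-test, adjusted p = 0.302). Per kilobase NR3C1 was 2.49 to 3.23 times NR3C2 in the 6 libraries, so the balance of the 2 receptors varied little. PGR changed place beside them: per kilobase it was 0.0151 to 0.0567 of NR3C1 in DMSO and 0.432 to 0.720 of it in E2. Per kilobase of coding sequence the ratio in E2 was 0.680 in parental cells, 1.02 in clone 1 and 1.13 in clone 2, so whether PGR stood under or above NR3C1 in the clones depended on the length used. Between knockout and parental libraries NR3C1 differed by 0.21 (SE 0.16) and NR3C2 by 0.13 (SE 0.14), and neither passed (edgeR quasi-likelihood F-test, adjusted p = 0.58 and 0.68).

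FKBP4, the co-chaperone that promotes progesterone receptor signalling, was higher after E2 in each line by nearly the same amount. Parental cells had 405 CPM with vehicle and 543 CPM with E2, clone 1 had 353 and 473 CPM, and clone 2 had 375 and 483 CPM. The 3 E2 libraries were all above the 3 DMSO libraries. By line, the log2 change was 0.42 (parental), 0.43 (clone 1) and 0.37 (clone 2). Over the 3 lines it was 0.40 (SE 0.12, 95% interval 0.12 to 0.69), a 1.32-fold difference that did not pass after adjustment (edgeR quasi-likelihood F-test, adjusted p = 0.164). With line as a replicate block the change was also 0.40 and did not pass (same test, adjusted p = 0.122). DESeq2 gave 0.40 and called it (Wald test, adjusted p = 0.0202), in a fit that called 7.14% of genes. It also passed, at 0.37, with the GC and length correction and the replicate block together (edgeR quasi-likelihood, adjusted p = 0.0399), where 11.9% of genes and 4 of the 7 were called. Both clones were under the parental line under each treatment, by -0.17 in the fit (SE 0.13, 95% interval -0.47 to 0.13; edgeR quasi-likelihood F-test, adjusted p = 0.575).

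FKBP5, the co-chaperone that lowers hormone affinity and a target of the progesterone and glucocorticoid receptors, had 56.0 CPM in parental cells with vehicle and 79.8 CPM with E2. Clone 1 had 71.1 and 82.0 CPM, and clone 2 had 75.2 and 73.7 CPM. The parental DMSO library was thus the low one, and the other 5 lay between 71.1 and 82.0 CPM. By line, the log2 change with E2 was 0.51 (parental), 0.21 (clone 1) and -0.03 (clone 2). Over the 3 lines it was 0.23 (SE 0.13, 95% interval -0.09 to 0.55; edgeR quasi-likelihood F-test, adjusted p = 0.358). Without the parental DMSO library, an alternative added after seeing the data, the E2 change was 0.07. A parental library left alone cannot inform that change, so it came from the clones, where the fit by themselves gave 0.08. The difference between genotypes went from 0.17 to -0.05. The PGR transcript changed by 3.28 or more on the log2 scale in each line, while FKBP5 ranged over 1.46-fold in all 6 libraries. No progestin or glucocorticoid is named in the treatments, and whether that bears on FKBP5 was not tested. Per kilobase of transcript FKBP4 was 9.81 to 14.3 times FKBP5 in the 6 libraries, and per kilobase of coding sequence 4.94 to 7.21 times.

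E2 libraries did not overlap the DMSO libraries for 4 of the 7 genes: PGR, ESR2 and FKBP4 were higher and NR3C2 was lower. Such separation was found for 24.2% of all genes. Whether the E2 change depended on the genotype was tested by the interaction, which called 0 of the 7 genes and 0% of all genes in edgeR. None of the 7 had an unadjusted p under 0.05 in edgeR, and limma-voom also called 0 of them. DESeq2 called 0 too, but it gave an adjusted p to ESR1 and FKBP4 only. PGR, FKBP5 and the rest could therefore not be called there. For PGR the E2 change of the clones minus that of the parental line was -0.69 (SE 0.76, 95% interval -2.53 to 1.15), and for FKBP5 it was -0.42 (SE 0.23, 95% interval -0.99 to 0.14). The other 5 lay between -0.20 and 0.17. With line as a replicate block 15.8% of all genes were called in the interaction, and again 0 of the 7 (PGR -0.61, edgeR quasi-likelihood, adjusted p = 0.144). The value for PGR rested on the DMSO libraries of the clones: it was 0.20 without that of clone 1 and -1.23 without that of clone 2, and was not called in either fit (alternatives added after seeing the data).

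**Figure D3:**
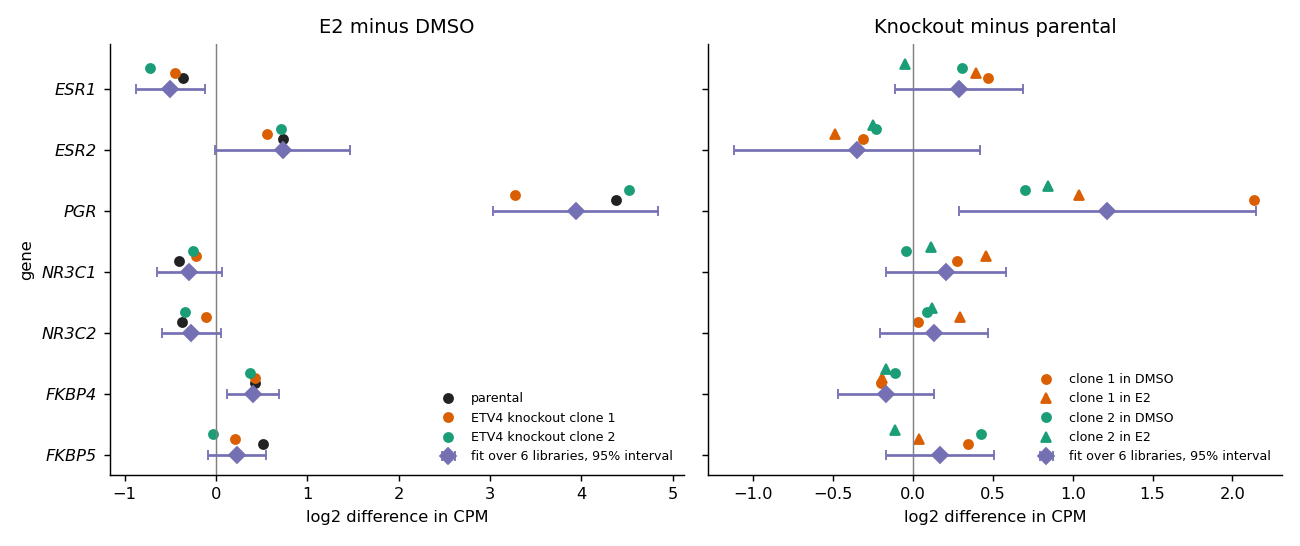
Log2 differences in CPM for the 7 genes, E2 minus DMSO on the left and knockout minus parental on the right, with single-library differences as dots and triangles and the edgeR fit over 6 libraries as diamonds with 95% intervals. PGR is far from 0 in E2 at 3.94, and between genotypes its fitted difference is 1.22 with clone 1 in DMSO at 2.14.

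The wider Hsp90 machinery that holds the receptors did not pass the test in either direction. Of 20 genes listed, 19 were tested, and edgeR called 0 for E2 (3-line fit) or for the knockout, where it called 1.13% and 0.327% of all genes. The median E2 log2 change of the 19 was 0.10, against -0.02 for all genes, with 13 positive and 6 negative, and the median knockout difference was -0.07 against 0.01. Hsp90 itself was abundant: HSP90AA1, the inducible form, ran from 2358 to 3563 CPM and HSP90AB1, the constitutive form, from 1872 to 2815 CPM. PTGES3, which encodes p23, ran from 787 to 1366 CPM, with the parental DMSO library highest. Reads of these 3 genes can be shared with processed pseudogene copies, so their levels are uncertain.

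HSP90AA1 changed by 0.29 (SE 0.16), HSP90AB1 by 0.13 (SE 0.17) and PTGES3 by -0.16 (SE 0.18) with E2. The smallest unadjusted p of the list for E2 was that of DNAJA1, an Hsp40, at 0.31 (SE 0.15; edgeR quasi-likelihood F-test, adjusted p = 0.293). For the knockout it was that of HSPA1B, an Hsp70 at 0.706 to 1.64 CPM whose reads are shared with its twin HSPA1A, at 0.63 (SE 0.31, adjusted p = 0.482, same test). For the interaction it was that of CDC37, which brings kinases to Hsp90, at -0.33 (SE 0.24, adjusted p = 0.678, same test).

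Of the 13 other FKBP genes, 11 were tested, and edgeR called 0 for E2 or the knockout, at the same background. Their median E2 change was -0.19 against -0.02 for all genes, with 8 of 11 negative. FKBP11, an FKBP of the secretory pathway, stood nearest to a call between genotypes. Its level was 26.0 and 29.5 CPM in parental cells (vehicle and E2), 14.3 and 16.8 CPM in clone 1, and 12.2 and 16.8 CPM in clone 2. The 4 clone libraries were all under both parental libraries, by -0.89 on the log2 scale (SE 0.14; edgeR quasi-likelihood F-test, adjusted p = 0.0733). FKBP1B, known for binding ryanodine receptors, had the smallest unadjusted p for E2 and for the interaction. Parental cells had 22.6 CPM with vehicle and 9.75 CPM with E2, while clone 1 had 14.1 and 10.4 CPM and clone 2 had 12.8 and 11.96 CPM. Its interaction was 0.95 (SE 0.32, edgeR quasi-likelihood, adjusted p = 0.617 unpaired and 0.00305 with the replicate block), and the high value was that of the parental DMSO library. The interaction fit with the replicate block called 15.8% of all genes. It left 1 residual degree of freedom, so its p-values use 1 spread estimated over the whole table.

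Among 15 known targets of the progesterone and glucocorticoid receptors, 14 were tested, and with E2 1 rose and 1 fell, where 0.903% of all genes were called higher and 0.224% lower. HSD11B2, the enzyme that inactivates cortisol and so shields the mineralocorticoid receptor, rose by 2.10 (SE 0.31; edgeR quasi-likelihood F-test, adjusted p = 0.0373). Its vehicle levels were 1.58, 3.35 and 1.64 CPM in the parental line, clone 1 and clone 2, and its E2 levels 9.17, 10.2 and 8.44 CPM. MT2A, a metallothionein, fell by 0.87 (SE 0.13; edgeR quasi-likelihood F-test, adjusted p = 0.0374), from 33.1, 19.9 and 19.2 CPM to 16.9, 10.4 and 11.8 CPM in the same order. TSC22D3, which encodes the glucocorticoid-induced leucine zipper protein, had 30.3, 25.7 and 16.6 CPM with vehicle and 12.8, 14.5 and 9.22 CPM with E2, and was named after its values were seen. Its change of -0.98 (SE 0.25) had an adjusted p of 0.13, and of 0.0277 with the replicate block, both in edgeR. That blocked E2 fit called 2.46% of all genes. The median of the 14 was 0.04 against -0.02 for all genes, with 8 positive and 6 negative. For the knockout 0 were called, and the smallest unadjusted p was that of MT2A at -0.68 (SE 0.13; edgeR quasi-likelihood F-test, adjusted p = 0.135). For the interaction it was that of PER1, a circadian clock gene, at -0.77 (SE 0.32, adjusted p = 0.617, and 0.0164 with the replicate block, edgeR quasi-likelihood). That blocked interaction fit called 15.8% of all genes.

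Of 18 known estrogen receptor targets, 13 were tested, and E2 raised 4 and lowered 0, where 0.903% of all genes were called higher and 0.224% lower. GREB1, an estrogen-induced cofactor of the receptor, rose by 2.96 (SE 0.16), EGR3, an early growth response factor, by 2.89 (SE 0.35), CA12, a carbonic anhydrase, by 2.88 (SE 0.18) and NRIP1, a corepressor that binds the receptor, by 1.12 (SE 0.12). Their adjusted p-values were 0.00214, 0.0181, 0.00257 and 0.0143 in the edgeR quasi-likelihood F-test. GREB1 went from 5.14, 8.26 and 9.84 CPM with vehicle to 50.1, 60.0 and 66.2 CPM with E2 in the parental line, clone 1 and clone 2. Its clones were thus also above the parental line, as for PGR. The knockout difference of GREB1 was 0.55 (SE 0.17) and did not pass (edgeR quasi-likelihood F-test, adjusted p = 0.312). The median of the 13 was 0.81 against -0.02 for all genes, with 10 positive and 3 negative. IGFBP4, named after its values were seen, had 0.235 to 0.558 CPM with vehicle and 1.51 to 3.28 CPM with E2. Its adjusted p was 0.0537, and 0.0422 with the replicate block (both edgeR), where 2.46% of all genes were called. For the knockout 0 of the 13 were called, with a median of 0.54 against 0.01, 9 positive and 4 negative.

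AGR2, a protein disulfide isomerase of secretory epithelium on the same list, had the smallest unadjusted p for the knockout and for the interaction. Parental cells had 27.9 CPM with vehicle and 8.39 CPM with E2, while clone 1 had 6.28 and 4.15 CPM and clone 2 had 7.21 and 4.61 CPM. The knockout difference was -1.54 (SE 0.26; edgeR quasi-likelihood F-test, adjusted p = 0.0958). The interaction was 1.11 (SE 0.35, edgeR quasi-likelihood, adjusted p = 0.617 unpaired and 0.00178 with the replicate block). That blocked fit called 15.8% of all genes and left 1 residual degree of freedom. As for FKBP1B and FKBP5, the library that stood apart was that of the parental line in DMSO.

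**Figure D4:**
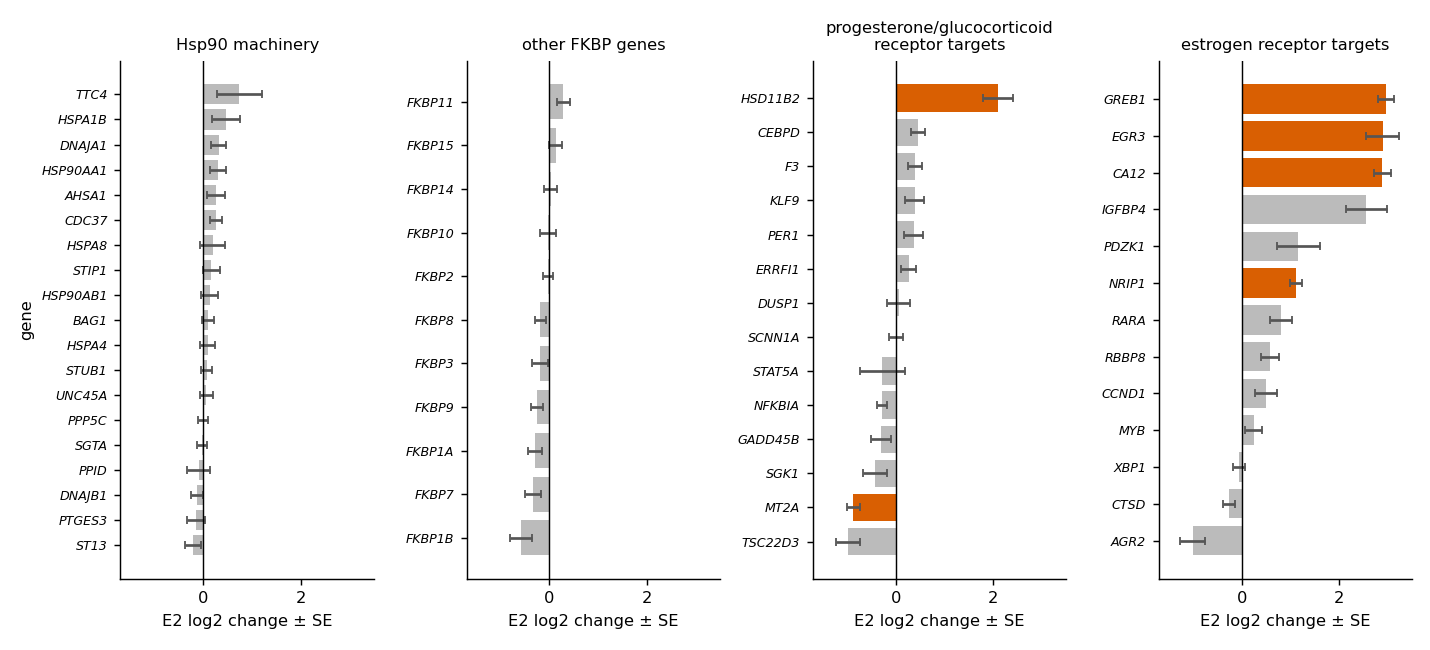
E2 log2 change (bars, ± SE) of each tested gene of the 4 lists in the edgeR fit over the 3 lines, with genes of adjusted p below 0.05 in orange and the others in grey. The Hsp90 machinery and the other FKBP genes have no orange bar, the progesterone and glucocorticoid receptor targets have HSD11B2 and MT2A, and the estrogen receptor targets have GREB1, EGR3, CA12 and NRIP1.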

How the data were processed

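Per the submitters' processing notes, HISAT2, SAMtools, Subread and DESeq2 were used with genome build hg19. Their versions, the annotation and the use of strand are not given in the sources used here. The authors' deposited table of raw whole-number counts per gene was used, and the second deposited table, of normalized values, was not. Columns written DMOS and ER were read as DMSO and E2.

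Counts were tested in R 4.3.3 with edgeR 4.0.16 (filterByExpr on 4 groups, TMM, quasi-likelihood test, Benjamini-Hochberg adjustment over all tested genes, threshold 0.05). This left 15611 of 26364 genes, and 14881 for the clones alone. The knockout and E2 effects came from a model with treatment and genotype. No main fit included line, so the DMSO and E2 libraries of a line were counted as separate samples there. The knockout standard errors and intervals therefore do not measure the spread between lines. Standard errors are the coefficient over the square root of F. Single-library differences used log2 CPM with a prior count of 2. Lengths and GC content came from GENCODE v29. Fits were tested on simulated data with independent libraries and no difference between lines, so that check does not cover the pairing of libraries by line.

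Clone numbers join the DMSO and E2 libraries of a line: across genes the clones' difference after vehicle and their difference after E2 had a correlation of 0.626. Nothing says that libraries came from separate cultures, so p-values measure the spread between these libraries. The genes and lists were chosen with earlier results of these data known. Named from each list were up to 4 called genes per direction with the largest change or, with none called, the gene with the smallest unadjusted p, beside Hsp90 and p23. Alternatives included limma-voom (limma 3.58.1) and DESeq2 1.42.0.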

Additional observations from a re-analysis of the deposited data

How the results depend on the processing

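Of the 7 genes, the number called for the knockout was 0, 1 in DESeq2, and 0 to 1 with each clone left out. The knockout effect cannot be fitted without the parental line. For E2 over the 3 lines the number called was 1 (PGR) with each line left out. Without the parental line that fit is the same as the one in the clones alone. The number was 2 in DESeq2 (PGR and FKBP4, where 1115 of 15611 genes were called). With the GC and length correction and the replicate block together it was 4, where 1739 of 14607 genes were called. These were PGR, FKBP4 at 0.37, NR3C1 at -0.36 and ESR1 at -0.60. For E2 in the clones it was 1, 0 to 1 with each library left out, 2 with the replicate block (PGR and ESR1), 0 with the GC and length correction, and 4 with that correction and the replicate block. The corrections, leaving out 1 parental library, and leaving out 1 clone library in the interaction were chosen after seeing the data. The direction turned for FKBP5 between genotypes without the parental DMSO library (-0.0459, range -0.0459 to 0.385 over libraries and lines left out) and for FKBP5 with E2 in the clones without the E2 library of clone 1 (-0.0065, range -0.0065 to 0.157). It also turned in the interaction for ESR2 (0.11 corrected, 0.11 also paired) and FKBP4 (0.0901 corrected, 0.09 also paired), and with 1 clone library left out for PGR (-1.23 to 0.202), ESR2 (-0.223 to 0.035), NR3C1 (-0.0118 to 0.331) and FKBP4 (-0.0926 to 0.0177). None of these was called. Median-ratio scaling, no filter, a filter of 10 counts in every library, limma-voom and prior counts of 0.5 and 5 changed no call or direction of the 7 genes. The paired fit (replicate block) changed no other call among them. Over all genes the counts moved widely: 51 for the knockout (1 without the parental E2 library, 996 without clone 2), 176 for E2 (49 without the parental line, 3353 without clone 2), 49 in the clones (0 without the DMSO library of clone 1, 3153 corrected and paired) and 0 for the interaction, with 1190 at an unadjusted p under 0.05 (29 in DESeq2, 0 to 38 with 1 clone library left out, 2470 paired). The cause was not tested. Fits without 1 clone library leave a group with 1 sample, assumed to vary like the other groups. The interaction could not be fitted without a parental library, and without both libraries of a clone it had no residual degrees of freedom. Depth limits ESR2, with 14 to 37 counts.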

Other observations

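The genes whose profile over the 6 libraries was most like that of PGR (smallest root mean square difference of centred log2 CPM among 3080 genes that averaged 2 CPM or more and varied by at least 2-fold) were LINC00565, CHRND and NPPC. LINC00565, a long noncoding RNA, differed from the PGR profile by 0.403 (Pearson's r 0.992) and stood at 0.336, 1.20 and 0.444 CPM in DMSO in the parental line, clone 1 and clone 2, and at 6.73, 8.16 and 6.87 CPM in E2. CHRND, the delta subunit of the muscle acetylcholine receptor, differed by 0.429 (r 0.986), with 0.168 to 0.391 CPM in DMSO and 3.34 to 4.32 CPM in E2. NPPC, which encodes C-type natriuretic peptide, differed by 0.483 (r 0.975), with 0.538 to 1.00 CPM in DMSO and 10.2 to 18.1 CPM in E2. They were selected for likeness over these libraries, so shared features of the profiles follow from that choice.

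For ESR2 the most alike were PHLDA1 (0.109, r 0.983), GALNS, a lysosomal sulfatase (0.115, r 0.951), and TRIM14 (0.118, r 0.968). ESR2 had 14 to 37 counts per library, with a 95% Poisson interval of 0.333 to 0.914 CPM in the parental DMSO library. These differences are small beside that counting error, so the order is uncertain. PHLDA1 stood at 9.65, 6.73 and 8.30 CPM in DMSO in the parental line, clone 1 and clone 2, and at 16.8, 10.6 and 14.8 CPM in E2. These correlations are over 6 libraries that share lines and treatments, and are given as a description. The other 5 genes varied by less than 2-fold over the libraries and were not matched.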
